A study of Mus musculus with 9 samples.

Results

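The genes described here are 10 Wnt pathway genes of mouse keratinocytes, which were chosen by symbol as feedback targets (Axin2, Nkd1, Nkd2), Tcf/Lef effectors (Lef1, Tcf7, Tcf7l2) and secreted antagonists (Dkk3, Sfrp1, Wif1, Sostdc1). All 10 were found among the 55357 Ensembl gene identifiers of the deposited table, and all 10 passed the filter on low counts that 15046 genes passed. The series profiled 3 sorted populations of back skin keratinocytes by poly(A) RNA-seq, with 3 libraries each, and its title addresses the lineage character of the touch dome cells that express Tenascin-C. Touchdome cells come from touch domes, patches of thickened epidermis beside some hair follicles where Merkel cells meet sensory nerve endings. HF cells are hair follicle keratinocytes and IFE cells are keratinocytes of the interfollicular epidermis.

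Every group came from C57BL/6 mice at postnatal day 60 that carried TNC-CREER, a tamoxifen-inducible Cre recombinase under the Tenascin-C gene Tnc, together with a Cre-dependent tdTomato reporter. All groups had received 2 tamoxifen injections of 100 µg per g body weight, on postnatal days 51 and 52, and no group lacked the transgene or the tamoxifen. Touchdome cells were positive for EPCAM, integrin α6, SCA1 and tdTomato. HF cells were positive for EPCAM and integrin α6 and negative for SCA1 and tdTomato. IFE cells were positive for EPCAM, integrin α6 and SCA1 and negative for tdTomato. Touchdome cells are thus defined by SCA1 and by the reporter, which Cre under Tnc switched on, and not by Tnc activity at sorting. SCA1-negative cells with the reporter are in none of the groups. Nothing in the labels ties a library to its own animal, so p-values measure only the spread between these libraries, which may be technical.

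Wnt proteins bind Frizzled receptors with the co-receptors Lrp5 and Lrp6, which keeps β-catenin from being destroyed and lets it join Tcf/Lef proteins on DNA. Cells that receive the signal switch on feedback genes such as Axin2, Nkd1 and Nkd2, which dampen it, while secreted antagonists keep Wnt proteins from their receptors. In skin, Wnt signalling drives the growth phase of the hair cycle and also acts in the basal layer of the epidermis, and the resting follicle is known for antagonists made by its stem cells.

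Levels are given as CPM, the count of a gene relative to its library's total after TMM scaling in edgeR, and serve to compare libraries for 1 gene. Levels of different genes are compared as TPM, the authors' abundance per transcript length. Values are in the order of replicates 1, 2 and 3, and the spread is the SD over 3 libraries. A gene was called where its adjusted p was under 0.05 in the quasi-likelihood test of edgeR, with Benjamini-Hochberg adjustment over all 15046 genes. Fold changes are log2 values ± SE. In bulk libraries such as these, fewer cells of a type and less RNA per cell cannot be told apart.

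Total counts ranged from 9295059 to 28249763 per library, and a count of 0 allowed up to 0.114 to 0.316 CPM (3 counts, counting error only). The gate genes followed the sort: Tnc stood at 200.4 to 288 CPM in Touchdome, 40.6 to 56.9 in HF and 1.13 to 7.16 in IFE, and Ly6a, which encodes SCA1, at 104 to 140.5, 0.422 to 1.90 and 112 to 179.6 CPM in the same groups. Summed over 8 follicle markers (Krt75, Lhx2, Sox9, Cd34, Krt79, Postn, Nfatc1 and Tgfb2), the level was 1517, 1238 and 2787 CPM in Touchdome, 7928, 8207 and 8051 in HF and 880.0, 736 and 948 CPM in IFE. Touchdome replicate 3 stood apart from replicates 1 and 2. On a first principal component that held 59.2% of the variance it lay at -2.86, against -37.6 and -40.7 for the other Touchdome libraries, 89.2 to 98.7 for HF and -75.4 to -57.5 for IFE. Its summed fibroblast markers (6 genes) were 90.2 CPM and its melanocyte markers (7 genes) 29.0 CPM, against 45.3 and 49.3 CPM and against 7.10 and 5.90 CPM in Touchdome replicates 1 and 2. In summed Merkel cell markers (6 genes), Touchdome replicate 1 stood apart instead, at 9.53 CPM against 1.34 and 1.33 CPM in replicates 2 and 3. Of these markers, Atoh1, Sox2 and Isl1 were at 0 in all Touchdome libraries.

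Promoter sequences were available from RefSeq (GRCm38.p6) for 7 of the 10 genes, as 12 windows of 250 bases before and 50 bases after an annotated start. The 250 bases before the start are shown for Axin2, the only gene of the 10 that was called higher in Touchdome than in HF. For Lef1, whose RefSeq record has starts in different parts of the gene, they are shown as well. So are those of Nkd1 and Wif1, which were far lower in Touchdome than in HF. All lie on the plus strand and directly upstream of an annotated transcript start, at chr11:108920099-108920348 for Axin2, chr8:88527383-88527632 for Nkd1, chr10:121033754-121034003 for Wif1, chr3:131110047-131110296 for the first Lef1 start and chr3:131156044-131156293 for a downstream Lef1 start. Capitals mark a match to a Tcf/Lef motif.
Axin2: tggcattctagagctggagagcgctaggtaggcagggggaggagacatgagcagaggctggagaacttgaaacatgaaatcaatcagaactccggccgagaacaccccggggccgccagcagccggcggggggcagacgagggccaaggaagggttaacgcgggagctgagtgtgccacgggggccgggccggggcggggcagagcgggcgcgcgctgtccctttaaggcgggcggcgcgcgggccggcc
Nkd1: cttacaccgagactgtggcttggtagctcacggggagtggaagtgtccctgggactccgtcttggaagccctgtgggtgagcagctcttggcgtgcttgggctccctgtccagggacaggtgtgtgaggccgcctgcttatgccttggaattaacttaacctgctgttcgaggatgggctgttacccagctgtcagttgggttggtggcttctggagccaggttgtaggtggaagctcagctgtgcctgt
Wif1: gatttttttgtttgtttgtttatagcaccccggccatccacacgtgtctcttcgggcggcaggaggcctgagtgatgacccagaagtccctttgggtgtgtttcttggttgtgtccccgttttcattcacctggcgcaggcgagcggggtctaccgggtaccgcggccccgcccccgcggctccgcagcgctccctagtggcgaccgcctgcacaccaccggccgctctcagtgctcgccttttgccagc
Lef1, first start: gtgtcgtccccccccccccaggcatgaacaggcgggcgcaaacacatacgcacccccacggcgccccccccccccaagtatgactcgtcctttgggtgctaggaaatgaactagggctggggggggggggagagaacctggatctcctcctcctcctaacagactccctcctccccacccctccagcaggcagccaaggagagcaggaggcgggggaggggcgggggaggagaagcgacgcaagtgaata
Lef1, downstream start: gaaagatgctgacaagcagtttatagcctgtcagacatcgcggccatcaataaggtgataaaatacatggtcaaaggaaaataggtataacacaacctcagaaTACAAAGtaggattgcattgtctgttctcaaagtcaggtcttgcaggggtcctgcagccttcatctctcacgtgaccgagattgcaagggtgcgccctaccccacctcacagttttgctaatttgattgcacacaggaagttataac

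The motif was searched on both strands in 4 forms, namely CTTTGAA, its variant CTTTGAT, the form CTTTGTA and its variant CTTTGTT, which share their first 5 letters. It occurred in 2 of the 12 windows, as CTTTGTA on the minus strand 147 bases before the downstream Lef1 start and as CTTTGTT on the plus strand 14 bases before a downstream start of Tcf7l2. Over all 32851 windows of the same length, 5544 (16.9%) held it. These are matches of letters, and the counts per gene do not separate the starts of Lef1 or Tcf7l2.

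On the per-length scale, the antagonist Sostdc1 was the most abundant of the 10 genes in every group, with mean levels of 192 TPM in Touchdome, 237 TPM in HF and 153 TPM in IFE. Below it the order differed between groups. In Touchdome, Axin2 (69.9 ± 17.1 TPM) and Sfrp1 (43.0 TPM) followed, then Tcf7l2 (19.7), Dkk3 (17.2) and Tcf7 (10.96 TPM), and the remaining genes were between 0.903 TPM (Lef1) and 2.81 TPM (Nkd2). Axin2 lay above Sfrp1 in all Touchdome libraries, whereas Dkk3 overlapped both Tcf7l2 and Tcf7, and the 4 lowest genes overlapped their neighbours in this order. HF had Dkk3 (205 TPM) and Sfrp1 (183 TPM) next after Sostdc1, ahead of Wif1 (52.03), Axin2 (50.9) and Tcf7l2 (46.9 TPM). In HF, Dkk3 overlapped both Sostdc1 and Sfrp1, which did not overlap each other, and Wif1, Axin2 and Tcf7l2 overlapped. IFE kept the first 4 places of Touchdome, with 68.4 TPM for Axin2, 31.6 TPM for Sfrp1 and 18.3 TPM for Tcf7l2, but held Wif1, Lef1 and Nkd1 at 0.0767, 0.0267 and 0.00667 TPM.

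Summed by role, the 4 antagonists amounted to 190.1, 233 and 337 TPM in Touchdome, 656, 700.3 and 673 TPM in HF and 176, 211 and 186 TPM in IFE. HF lay above the other groups without overlap. The 3 effectors summed to 31.8, 28.9 and 34.0 TPM in Touchdome, 75.3, 71.0 and 79.0 TPM in HF and 25.9, 38.0 and 26.8 TPM in IFE. The sums of the feedback targets, in contrast, overlapped between all groups, at 58.9, 94.1 and 72.6 TPM in Touchdome, 69.0, 77.3 and 72.2 TPM in HF and 71.9, 74.7 and 62.4 TPM in IFE. These sums join genes with opposite patterns. Mean Axin2 was 69.9 TPM in Touchdome, 50.9 TPM in HF and 68.4 TPM in IFE. Mean Nkd1 was 2.41, 20.3 and 0.00667 TPM in the same groups. Antagonists held 65.5% to 76.0% of the summed TPM of the 10 genes in Touchdome, 81.7% to 82.5% in HF and 64.3% to 67.6% in IFE.

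**Figure D1:**
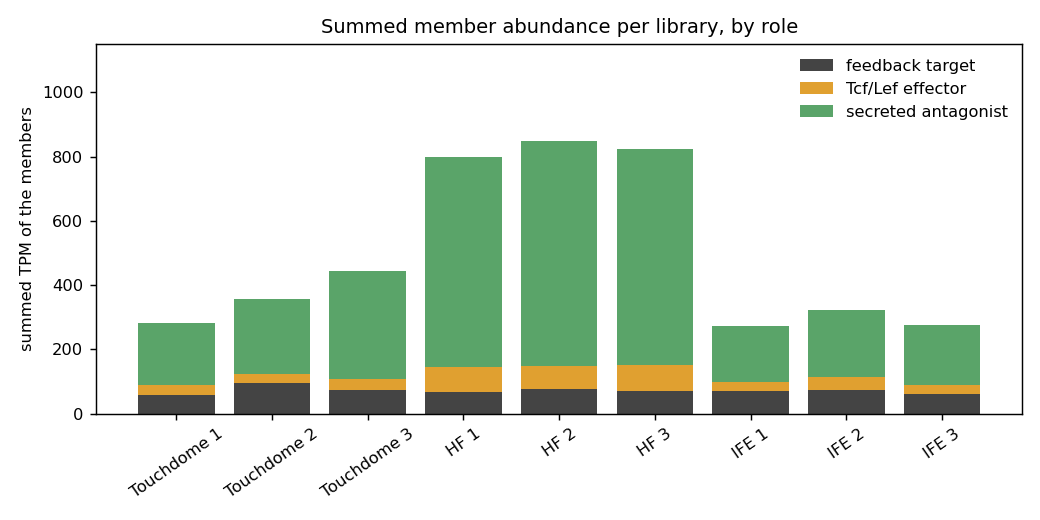
Summed TPM (y axis) of the 10 Wnt genes in each of the 9 libraries (x axis), stacked by role: 3 feedback targets, 3 Tcf/Lef effectors and 4 secreted antagonists. The antagonist part is 190.1 to 337 TPM in Touchdome, 656 to 700.3 TPM in HF, where the bars are tallest, and 176 to 211 TPM in IFE.

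Among the feedback targets, Axin2 and Nkd1 had opposite patterns between Touchdome and HF. Axin2 (ENSMUSG00000000142) encodes a scaffold of the complex that marks β-catenin for destruction, and its transcript is widely used as a readout of Wnt signalling. Axin2 stood at 119, 178 and 120.4 CPM in Touchdome, 84.7, 98.7 and 85.5 in HF and 141, 158 and 136 CPM in IFE. In CPM every Touchdome library was above every HF library, while the Touchdome and IFE libraries overlapped. In TPM the Touchdome and HF libraries overlapped, with Touchdome replicate 1 at 54.95 TPM and HF replicate 2 at 57.5 TPM. Touchdome exceeded HF by 0.64 ± 0.15 (adjusted p = 0.00845, edgeR), a fold of 1.55. Between Touchdome and IFE the difference was -0.06 ± 0.15 (95% interval -0.39 to 0.27, adjusted p = 0.958, edgeR), so that a difference of the size seen against HF lies outside the interval.

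Nkd1 (ENSMUSG00000031661) encodes naked cuticle 1, which binds Dishevelled and restrains the signal. Nkd1 had 2.17, 1.70 and 4.57 CPM in Touchdome, 29.4, 24.6 and 30.3 in HF, and 0, 0 and 0.0379 CPM in IFE. The 3 groups did not overlap, with Touchdome in between, and IFE held 1 count in its 3 libraries together. Touchdome fell by 3.32 ± 0.33 (log2) against HF (adjusted p = 1.54e-05, edgeR). Against IFE, 108 counts in Touchdome stood against 1 count, a ratio of 166 with an exact 95% counting interval of 29.1 to 6600, and the edgeR test gave an adjusted p of 0.000194. Without Touchdome replicate 3 both calls held (adjusted p = 1.75e-06 against HF and 9.35e-05 against IFE, edgeR).

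Nkd2 (ENSMUSG00000021567), the paralogue of Nkd1, was near the bottom of the range in every group, with 3.90, 7.96 and 4.82 CPM in Touchdome, 3.98, 3.79 and 2.82 in HF and 2.26, 3.59 and 2.42 CPM in IFE. Touchdome overlapped HF and lay just above IFE. The difference was 0.65 ± 0.37 over HF (95% interval -0.15 to 1.45, adjusted p = 0.241, edgeR) and 1.01 ± 0.37 over IFE (0.21 to 1.82, adjusted p = 0.308, edgeR). Neither passed the threshold, and the second interval excludes 0 only before adjustment.

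**Figure D2:**
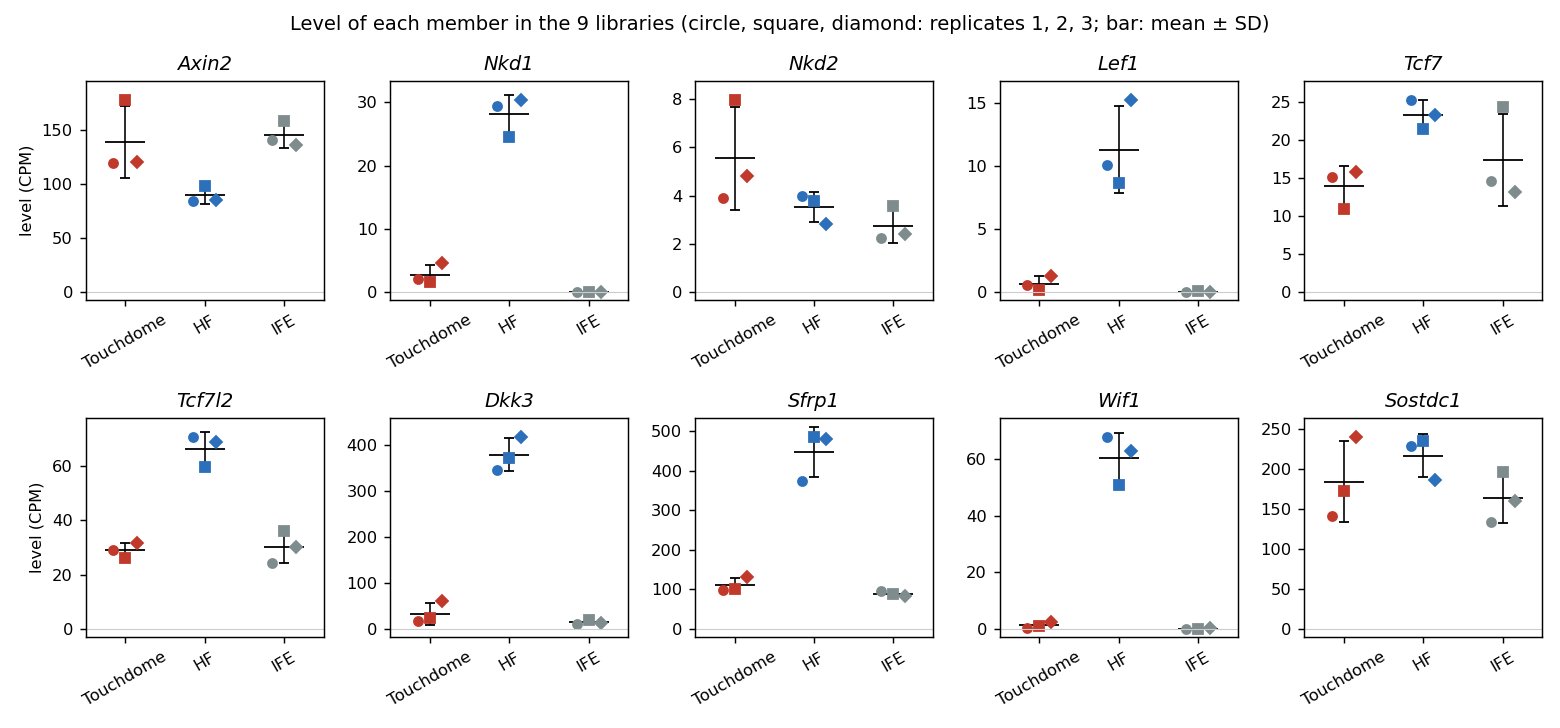
Level of each of the 10 genes in CPM (y axis, a scale per panel) in the 3 Touchdome, 3 HF and 3 IFE libraries (circle, square and diamond for replicates 1, 2 and 3), with the group mean ± SD (bars). Touchdome points lie at or near the level of IFE for Axin2, Tcf7l2 and Sfrp1, far below HF for Nkd1, Lef1, Dkk3 and Wif1, and overlap both other groups for Sostdc1.

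All 3 Tcf/Lef effectors were lower in Touchdome than in HF. Lef1 (ENSMUSG00000027985), the factor that accompanies hair differentiation and is induced by the pathway itself, had 0.575, 0.179 and 1.33 CPM in Touchdome, 10.1, 8.64 and 15.2 in HF and 0, 0.0703 and 0.0379 CPM in IFE. These Touchdome levels rest on 9, 2 and 16 counts. HF libraries were all above Touchdome, and Touchdome libraries were all above IFE. The difference from HF was -4.01 ± 0.56 (adjusted p = 0.000203, edgeR), and -4.81 without Touchdome replicate 3 (adjusted p = 7.67e-05, edgeR).

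Against IFE, Lef1 had 27 counts in Touchdome and 2 counts in IFE, a ratio of 20.7 with a counting interval of 5.2 to 180. The adjusted p was 0.0389 (edgeR), and this call ended in 10 of 15 alternatives. Among those were leaving out Touchdome replicate 1 (adjusted p = 0.0637), Touchdome replicate 3 (0.152), any HF replicate (0.0602 to 0.0732) or any IFE replicate (0.064 to 0.15), all with edgeR. The authors' estimated counts of Lef1 were not whole in 4 libraries, while those of the other 9 genes were whole in all libraries. Its TPM values put the Touchdome libraries in another order, at 1.85, 0.14 and 0.72 TPM.

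Tcf7 (ENSMUSG00000000782), also called Tcf1, was at 15.2, 10.99 and 15.9 CPM in Touchdome, 25.2, 21.5 and 23.3 in HF and 14.6, 24.3 and 13.2 CPM in IFE. Touchdome was below HF in every library, and fell by a log2 value of 0.74 ± 0.23 (adjusted p = 0.034, edgeR). IFE replicate 2 reached the level of HF, and the other IFE libraries that of Touchdome. The call against HF ended in 5 of 16 alternatives: without Touchdome replicate 1 (adjusted p = 0.0788), Touchdome replicate 2 (0.132), or HF replicates 1, 2 or 3 (0.109, 0.0575 and 0.0777, edgeR). Against IFE the difference was -0.30 ± 0.23 (95% interval -0.80 to 0.20, adjusted p = 0.762, edgeR).

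Tcf7l2 (ENSMUSG00000024985), which encodes Tcf4, the most abundant effector per length in all groups, had 29.2, 25.9 and 31.5 CPM in Touchdome, 70.5, 59.4 and 68.8 in HF and 24.3, 35.8 and 30.0 CPM in IFE. Touchdome and IFE overlapped and HF lay above both. Touchdome fell by 1.20 ± 0.15 (log2) against HF, a 2.3-fold lower level (adjusted p = 0.000107, edgeR). From IFE it differed by -0.06 ± 0.15 (95% interval -0.39 to 0.28, adjusted p = 0.962, edgeR).

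Of the secreted antagonists, Dkk3, Sfrp1 and Wif1 were lower in Touchdome than in HF, and Sostdc1 was not called. Wif1 (ENSMUSG00000020218) encodes Wnt inhibitory factor 1, which binds Wnt proteins outside the cell. Wif1 had 0.511, 1.07 and 2.57 CPM in Touchdome, 67.8, 50.8 and 62.9 in HF and 0.0526, 0 and 0.265 CPM in IFE. The groups did not overlap, and the summed counts were 51 in Touchdome and 8 in IFE. Touchdome was 45-fold below HF (log2 fold change -5.49 ± 0.46, adjusted p = 1.82e-05, edgeR), and -6.31 without Touchdome replicate 3 (adjusted p = 4.84e-07). Over IFE the difference was 3.27 ± 0.78 (95% interval 1.53 to 5.01), which did not pass the threshold (adjusted p = 0.0917, edgeR). It did with DESeq2 (adjusted p = 0.00511), with limma on log2(TPM + 0.1) (adjusted p = 0.0377) and without Touchdome replicate 1 (adjusted p = 0.0179, edgeR). Without Touchdome replicate 3 the difference was 2.45 (adjusted p = 0.192, edgeR).

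Dkk3 (ENSMUSG00000030772) belongs to the Dickkopf family, but its effect on Wnt signalling varies with the cell type. It had 16.4, 22.9 and 60.5 CPM in Touchdome, 346, 372 and 417 in HF and 11.4, 19.0 and 13.0 CPM in IFE. HF was far above both other groups, and the value of Touchdome replicate 3 was the highest outside HF. Touchdome was 11.4-fold below HF (-3.51 ± 0.49, adjusted p = 0.00139, edgeR), and without Touchdome replicate 3 the log2 fold change was -4.27 (adjusted p = 2.15e-07). The difference from IFE, 1.21 ± 0.47 (95% interval 0.12 to 2.29, adjusted p = 0.407, edgeR), was 0.44 without that library (adjusted p = 0.723).

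Sfrp1 (ENSMUSG00000031548), a secreted Frizzled-like protein that binds Wnt proteins, had 99.7, 100.2 and 131 CPM in Touchdome, 373, 485 and 481 in HF and 95.7, 89.3 and 82.9 CPM in IFE. Touchdome lay just above IFE and far below HF, with no overlap. It fell by 2.02 ± 0.15 on the log2 scale against HF (adjusted p = 1.31e-06, edgeR), a 4.05-fold lower level. Over IFE it differed by 0.31 ± 0.14 (95% interval 0 to 0.62, adjusted p = 0.477, edgeR), which was 0.16 without Touchdome replicate 3 (adjusted p = 0.95).

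Sostdc1 (ENSMUSG00000036169), also known as ectodin or Wise, is an antagonist of BMP proteins that also binds the Wnt co-receptors. Its levels were 141, 172 and 239.9 CPM in Touchdome, 229, 235 and 186 in HF and 134, 197 and 160.4 CPM in IFE. All 3 groups overlapped. Touchdome differed from HF by -0.23 ± 0.20 (95% interval -0.66 to 0.19, adjusted p = 0.444) and from IFE by 0.17 ± 0.20 (-0.26 to 0.60, adjusted p = 0.865, both edgeR). Without Touchdome replicate 3 these were -0.47 (adjusted p = 0.0791) and -0.07 (adjusted p = 0.996).

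Against HF, 1 of the 10 genes was higher in Touchdome and 7 were lower, where 11.8% of all genes tested were called higher and 12.8% lower. The same 1 and 7 genes were without overlap between the libraries in CPM, as were 21.2% and 22.2% of all genes. The median log2 fold change was -1.61 over the 10 genes and 0 over all genes tested. Without Touchdome replicate 3 the counts were again 1 and 7, and the median was -1.71.

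Against IFE, 2 of the 10 genes were higher in Touchdome, Nkd1 and Lef1, and 0 were lower, where 1.22% of all genes tested were called higher and 0.0798% lower. At an unadjusted p under 0.05 the counts were 5 and 0 with edgeR, beside 6.96% and 3.71% of all genes. With DESeq2 at the adjusted threshold they were 3 and 0, beside 2.59% and 0.429% of the genes it tested. A replicate block left the counts at 2 and 0, while it called 282 of all genes higher and 67 lower, against 184 and 12 without the block. In 5 genes (Nkd1, Nkd2, Lef1, Sfrp1 and Wif1) every Touchdome library was above every IFE library, as in 8.32% of all genes, and in 0 genes every Touchdome library was below, as in 6.27%. The median log2 fold change was 0.66, against 0 over all genes. Without Touchdome replicate 3, 1 gene was called higher, Nkd1, and the median was 0.30.

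HF against IFE gives the distance over which the Touchdome levels can be read. Of the 10 genes, 6 were higher in HF (Nkd1, Lef1, Tcf7l2, Dkk3, Sfrp1 and Wif1) and Axin2 was lower, where 17.1% of all genes tested were called higher and 16.0% lower (2571 and 2401 genes, against 2916 and 1219 with limma on log2(TPM + 0.1)). The same 6 and 1 genes did not overlap between the libraries, nor did 24.6% and 23.1% of all genes. The median was 1.73, against 0 over all genes. Wif1 rose by 8.76 ± 0.58 (adjusted p = 2.62e-06, edgeR), a value of 10.62 without IFE replicate 3, which held most of the few IFE counts. Dkk3 rose by 4.72 ± 0.52 (adjusted p = 0.000271) and Sfrp1 by 2.32 ± 0.15 (adjusted p = 2.65e-07, both edgeR).

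For the genes with almost no IFE counts, ratios of summed counts were 1710 for Nkd1 (1339 counts in HF against 1 in IFE, interval 307 to 67700) and 341 for Lef1 (534 against 2, interval 94.1 to 2830). Their edgeR adjusted p was 1.08e-07 and 5.84e-06. Tcf7l2 rose by 1.14 ± 0.15 (adjusted p = 8.98e-05), and Axin2 fell by 0.70 ± 0.15 in HF (adjusted p = 0.00349, both edgeR). The remaining genes did not pass, with 0.44 ± 0.23 for Tcf7 (adjusted p = 0.164), 0.40 ± 0.20 for Sostdc1 (0.138) and 0.36 ± 0.37 for Nkd2 (0.494). Tcf7 passed without IFE replicate 2 (adjusted p = 0.00937, edgeR). With limma on log2(TPM + 0.1) both Tcf7 (0.74, adjusted p = 0.0381) and Sostdc1 (0.63, adjusted p = 0.0324) passed, so that 8 of the 10 genes were higher in HF, and likewise on log2(TPM + 1) (adjusted p = 0.0363 and 0.0317).

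The calls of Axin2 depended on the scale. With limma on log2(TPM + 0.1), Axin2 was 0.44 higher in Touchdome than in HF (adjusted p = 0.118) and 0.43 lower in HF than in IFE (log2 fold change -0.43, adjusted p = 0.0985). On that scale the median of all genes shifted by -0.07 between Touchdome and HF and by 0.22 between HF and IFE, and relative to it the Axin2 differences were 0.51 and -0.64. Relative to the same shift, Tcf7 and Sostdc1 were 0.52 and 0.42 higher in HF than in IFE.

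**Figure D3:**
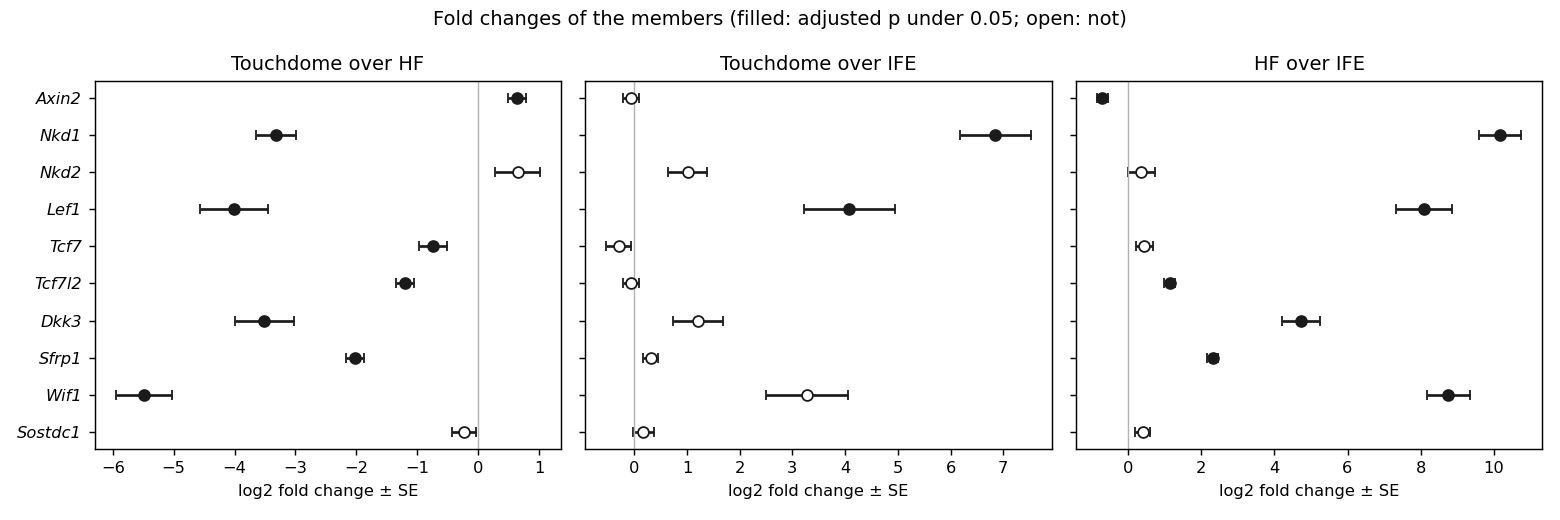
Log2 fold change (x axis) of the 10 genes (rows) for Touchdome over HF, Touchdome over IFE and HF over IFE, with bars of ± SE. Filled points passed an adjusted p under 0.05 in edgeR, open points did not, and against IFE the points of Nkd1 and Lef1 rest on 1 and 2 IFE counts.

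Expressed in CPM against the HF mean, the Touchdome libraries differed among themselves. Replicate 3 was the highest of the 3 Touchdome libraries for 8 of the 10 genes, replicate 2 for Axin2 and Nkd2, and replicate 1 for 0, while over all 15046 genes the highest library was replicate 1, 2 or 3 in 33%, 33.6% and 33.4%. Nkd1 reached 7.74%, 6.05% and 16.3% of the HF mean, and Dkk3 4.34%, 6.05% and 16.0%. Lef1 was at 5.09%, 1.58% and 11.8%, and Wif1 at 0.845%, 1.77% and 4.25%. Each of these 4 genes was thus highest in replicate 3 in CPM, but in TPM Lef1 was highest in replicate 1 (1.85, 0.14 and 0.72 TPM). In all 4 every Touchdome library exceeded the IFE mean. That mean was 0.0449% of the HF mean for Nkd1, 3.82% for Dkk3, 0.319% for Lef1 and 0.175% for Wif1. Single libraries of Touchdome and IFE overlapped for Dkk3, but not for Nkd1, Lef1 and Wif1.

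The follicle markers moved with these genes to unequal degrees. Krt75, a keratin of the companion layer, was at 3.22%, 3.003% and 25.1% of the HF mean, the surface protein gene Cd34 at 2.52%, 2.97% and 12.4%, and the transcription factor gene Lhx2 at 3.97%, 4.95% and 12.9%. All 8 follicle markers were highest in Touchdome replicate 3. Some of them varied less than these 3, such as Tgfb2 (20.9%, 20.6% and 26.9%, IFE mean 20.0%) and Nfatc1 (18.1%, 21.6% and 32.1%, IFE mean 17.9%). Of the Wnt genes, Sfrp1 (22.3%, 22.4% and 29.4%, IFE mean 20.0%) and Tcf7l2 (44.0%, 39.1% and 47.5%, IFE mean 45.3%) also varied less. The part of the follicle markers in the levels of the Wnt genes was not tested.

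**Figure D4:**
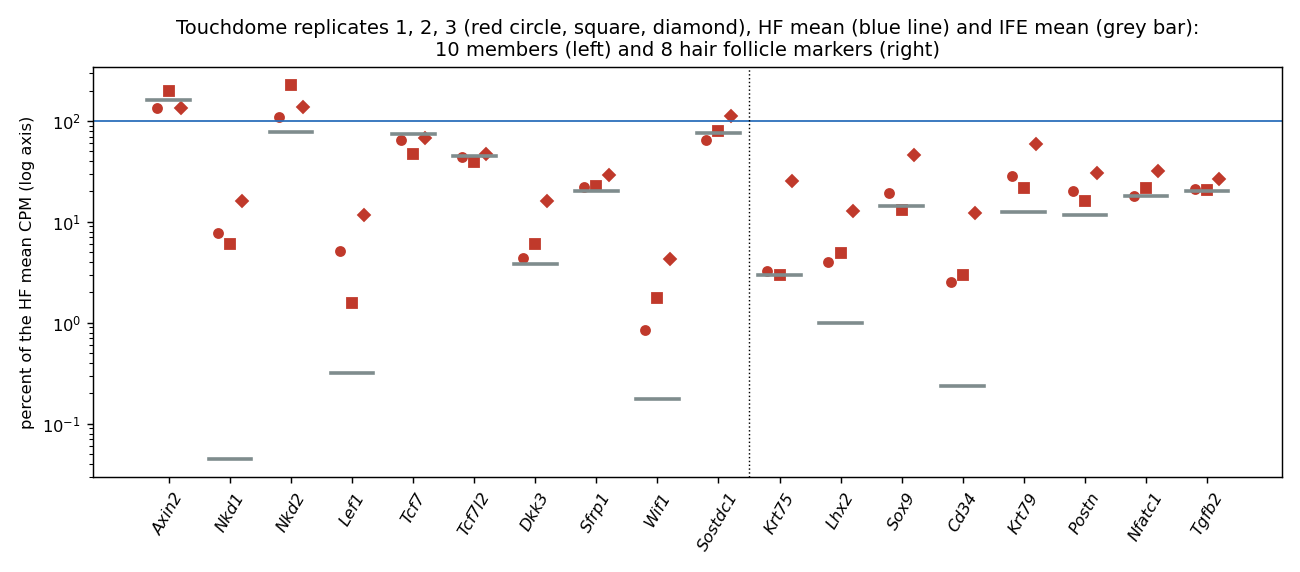
Level (CPM) in Touchdome replicates 1, 2 and 3 as a percentage of the HF mean (y axis, log scale) for the 10 Wnt genes and 8 follicle markers (x axis), with the IFE mean as a bar. Replicate 3 is the highest Touchdome point for 8 of the 10 Wnt genes and all 8 follicle markers, for example 16.3% for Nkd1 and 25.1% for Krt75.

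Several of the 10 genes are also known from cells of the dermis, from T cells or from melanocytes, so the markers of those cells were read beside them. Fibroblast markers (6 genes) summed to 45.3, 49.3 and 90.2 CPM in Touchdome, 83.5, 62.2 and 87.1 in HF and 0.894, 0.844 and 2.95 CPM in IFE. Lum was at 0 in all Touchdome and HF libraries, and Dcn was at 16.4 to 25.3 CPM in Touchdome against 0 to 0.0655 CPM in HF. In Touchdome replicate 3, Col1a1 was at 31.1 CPM, against 2.43 and 3.58 CPM in replicates 1 and 2, and 6.53 to 14.7 CPM in HF. Dcn was higher in Touchdome than in HF (9.54 ± 0.76, adjusted p = 2.58e-06) and Col1a2 lower (-1.83 ± 0.30, adjusted p = 0.00126, both edgeR). Another 3 tested fibroblast markers were not called. The sums of Touchdome and HF thus rest in part on different genes and do not compare fibroblast shares. The fibroblast sum was near 0 in IFE, as were Nkd1, Lef1 and Wif1, and its part in their levels was not tested.

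Dermal papilla markers (6 genes) summed to 7.89 to 13.5 CPM in Touchdome, 17.0 to 22.8 CPM in HF and 14.0 to 19.8 CPM in IFE. Tbx18 was at 0 in all libraries, and Alpl and Prom1 were at 0 in HF and IFE. Nearly the whole sum came from Hhip in HF and from Rspo3 in Touchdome and IFE. T cell markers (8 genes), relevant to Lef1 and Tcf7, summed to 16.2 to 22.2 CPM in Touchdome, 4.39 to 14.9 CPM in HF and 10.8 to 15.7 CPM in IFE. Their part was not tested. Melanocyte markers (7 genes) summed to 5.90 to 29.0 CPM in Touchdome, 8.87 to 31.1 CPM in HF and 3.18 to 3.94 CPM in IFE, and their part was not tested.

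For each of the 10 genes, the other gene with the most similar pattern was found among genes with a mean of at least 10 CPM, by Pearson's r of log2 CPM over the 9 libraries. These values describe libraries that fall into 3 groups and carry no test. Nkd1 was most like Tgm5, a transglutaminase gene, with r = 0.996 and mean levels of 67.3 CPM in Touchdome, 549 CPM in HF and 3.53 CPM in IFE. Lef1 was most like Fbln1, the fibulin 1 gene (r = 0.996), Wif1 like Adcy1, an adenylate cyclase gene (r = 0.994), and Dkk3 like Gabre, a GABA receptor subunit gene (r = 0.999). Sfrp1 was most like the Wnt receptor gene Fzd3 (r = 0.995).

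Axin2 was most like Stat6 (r = 0.993), which averaged 161 CPM in Touchdome, 125 CPM in HF and 166 CPM in IFE. Tcf7l2 was most like Aldh7a1 (r = 0.991). The genes with small differences between groups had lower values, with 0.955 for Nkd2 and Zfp617, 0.948 for Sostdc1 and Ifi30 and 0.941 for Tcf7 and Rxylt1.

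Of 96 other genes of the pathway, 79 passed the filter. Touchdome was higher than HF for 18 and lower for 26 of them, where 11.8% and 12.8% of all genes were called, with a median log2 fold change of -0.15. Over IFE, Touchdome was higher for 1 gene and lower for 1, beside 1.22% and 0.0798% of all genes, with a median of -0.03. The counts were 13 and 10 at an unadjusted p under 0.05, beside 6.96% and 3.71%, then 7 and 2 with DESeq2, beside 2.59% and 0.429%, and 2 and 2 with a replicate block. HF was higher than IFE for 26 and lower for 19, beside 17.1% and 16.0% of all genes, with a median of 0.11. Receptor and ligand roles went in opposite directions between Touchdome and HF: 10 of 15 receptors were lower and 1 higher in Touchdome. In the ligand role 10 of 16 genes were higher and 1 lower. That role includes Porcn and Wls, which do not encode Wnt ligands. Wls was among the genes called higher (0.71 ± 0.12, adjusted p = 0.000769, edgeR), and Porcn was not called. The same split was seen between HF and IFE. There 11 of 15 receptors were higher in HF and 1 lower, and 10 of 16 genes of the ligand role were lower and 1 higher. Between Touchdome and IFE, 1 receptor was called higher and 0 genes of the ligand role were called.

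Among receptors, Fzd3 was at 14.6 ± 5.28 CPM in Touchdome, 121 ± 17.9 CPM in HF and 10.1 ± 1.60 CPM in IFE, a difference of -3.06 ± 0.23 from HF (adjusted p = 2.53e-06, edgeR). The co-receptor gene Ror2, which binds Wnt5a, had 3.07, 3.22 and 4.48 CPM in Touchdome, 13.3, 15.2 and 20.1 in HF and 0.158, 0 and 0.114 CPM in IFE. Like Nkd1, it lay between HF and IFE without overlap. It differed from HF by -2.17 ± 0.34 (adjusted p = 0.000438) and from IFE by 5.07 ± 0.49 (adjusted p = 0.000194, both edgeR), the only one of the 79 genes called higher in Touchdome than in IFE.

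The ligand genes Wnt3 and Wnt3a were the reverse of the follicle pattern. Wnt3 averaged 196 ± 44.5 CPM in Touchdome, 3.56 ± 0.898 CPM in HF and 200.2 ± 6.88 CPM in IFE. It exceeded HF by 5.74 ± 0.21 (adjusted p = 1.49e-08) and differed from IFE by -0.03 ± 0.17 (95% interval -0.39 to 0.33, adjusted p = 0.982, both edgeR). Wnt3a averaged 30.4 ± 10.7 CPM in Touchdome, 0.997 ± 0.272 CPM in HF and 45.0 ± 6.89 CPM in IFE. Its difference from HF was 4.96 ± 0.31 (adjusted p = 4.75e-07, edgeR).

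R-spondin proteins strengthen Wnt signals through Lgr receptors. In the R-spondin module 3 of 6 tested genes were higher in Touchdome than in HF and 3 lower, beside 11.8% and 12.8% of all genes. The higher ones were Rspo3, Znrf3 and Rnf43, of which only Rspo3 encodes an R-spondin. The lower ones were the receptor genes Lgr4, Lgr5 and Lgr6. The ligand gene Rspo3 averaged 9.84 ± 2.99 CPM in Touchdome, 0.150 ± 0.161 CPM in HF and 16.2 ± 2.93 CPM in IFE (5.66 ± 0.48 over HF, adjusted p = 3.68e-06, edgeR). That value was 6.80 without HF replicate 1. Lgr6, a receptor gene of epidermal stem cells, had 154, 132 and 172 CPM in Touchdome, 351, 326 and 369 in HF and 253, 207 and 279 CPM in IFE. Touchdome lay below HF and IFE alike, with log2 fold changes of -1.19 ± 0.14 against HF (adjusted p = 4.56e-05) and -0.69 ± 0.14 against IFE (adjusted p = 0.0241, both edgeR). In 8 of 16 alternatives Lgr6 was not called against IFE, which included every fit without Touchdome replicate 1, Touchdome replicate 2, IFE replicate 1, IFE replicate 3 or HF replicate 1.

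Of 15 signal transduction genes 4 were lower in Touchdome than in HF, beside 12.8% of all genes. Among the 4 were Apc2 (-2.11 ± 0.38, adjusted p = 0.00131) and the Dishevelled gene Dvl2 (-0.56 ± 0.15, adjusted p = 0.0142, both edgeR). The call of Dvl2 ended without Touchdome replicate 1 or HF replicate 3 and with both limma fits on TPM. Of 13 nuclear partners 6 were lower and 1 higher, beside 12.8% and 11.8% of all genes. Tcf7l1, the Tcf3 repressor gene of follicle stem cells, averaged 8.92 ± 2.52 CPM in Touchdome, 46.3 ± 6.95 CPM in HF and 3.97 ± 2.24 CPM in IFE (-2.38 ± 0.33 against HF, adjusted p = 0.000363, edgeR). The Groucho-family co-repressor gene Tle1 averaged 33.4 ± 13.6 CPM in Touchdome, 101 ± 9.07 CPM in HF and 23.4 ± 2.76 CPM in IFE (-1.60 ± 0.23 against HF, adjusted p = 0.000423, and -1.98 without Touchdome replicate 3, adjusted p = 1.65e-06, both edgeR).

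Among 7 other extracellular inhibitors, 1 was lower in Touchdome than in HF, as were 12.8% of all genes. This was Trabd2b, a protease gene of the Tiki family that inactivates Wnt proteins, with 25.4 ± 13.8 CPM in Touchdome, 202 ± 6.95 CPM in HF and 10.8 ± 1.72 CPM in IFE (7.97-fold below HF, adjusted p = 0.000187, edgeR). Without Touchdome replicate 3 its log2 fold change against HF was -3.52 (adjusted p = 8e-08, edgeR). Notum, which encodes a Wnt deacylase, was low in all groups, at 0.545 CPM in Touchdome, 1.70 CPM in HF and 0.340 CPM in IFE. Its difference from HF was -1.62 ± 0.69 (adjusted p = 0.113, edgeR).

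Of 7 other targets, 3 were higher in Touchdome than in HF and 1 lower, beside 11.8% and 12.8% of all genes. The lower one was Bambi (-2.18 ± 0.34, adjusted p = 0.000409, edgeR). The receptor gene Tnfrsf19, also called Troy, averaged 463 ± 92.9 CPM in Touchdome, 62.2 ± 5.94 CPM in HF and 583 ± 29.0 CPM in IFE (2.90 ± 0.16 over HF, adjusted p = 1.32e-07, edgeR). The transcription factor gene Ascl2 averaged 8.56 ± 3.11 CPM in Touchdome, 0.596 ± 0.178 CPM in HF and 13.6 ± 3.78 CPM in IFE (3.76 ± 0.39 over HF, adjusted p = 1.77e-05, edgeR). Against IFE neither Tnfrsf19 (-0.33 ± 0.15, 95% interval -0.65 to -0.02) nor Ascl2 (-0.67 ± 0.31, -1.33 to 0) passed the threshold (adjusted p = 0.436 and 0.47, edgeR). For Tnfrsf19 every Touchdome library was below every IFE library, while Ascl2 overlapped. In Touchdome, Tnfrsf19 and Ascl2 were nearer to IFE than to HF, as was Axin2, whereas Nkd1 and Lef1 lay above IFE and below HF. Tnfrsf19 and Ascl2 were named for their small p and do not stand for all 7 targets.

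**Figure D5:**
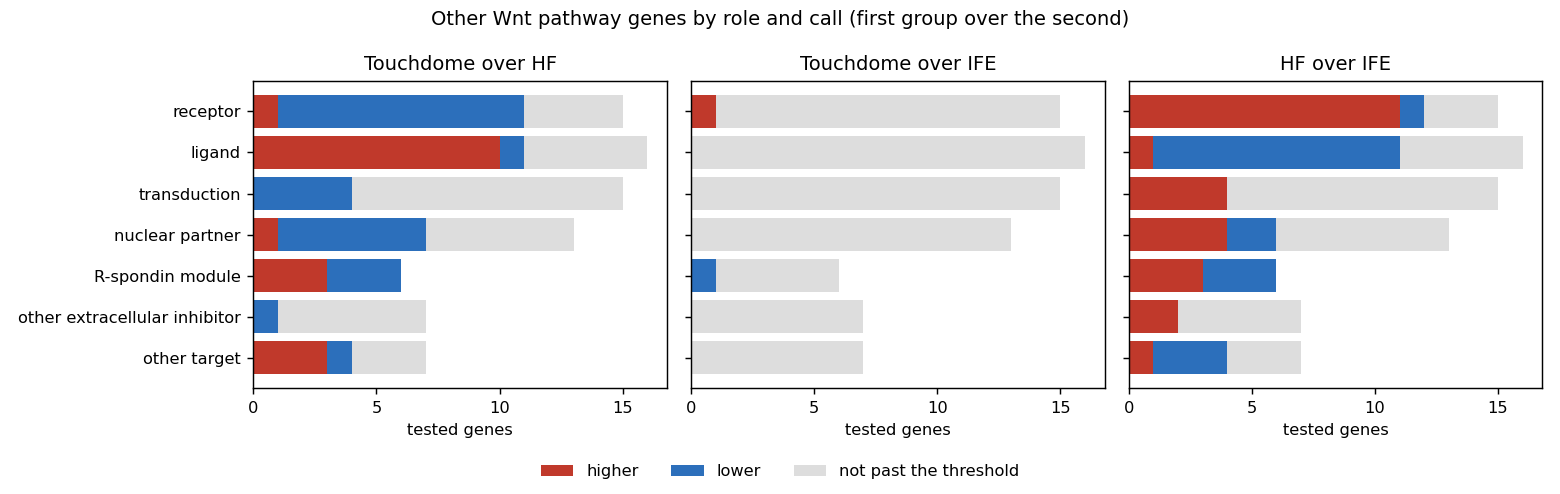
Number of tested Wnt pathway genes outside the 10 (x axis) by role (rows) that were higher, lower or not called in edgeR, for Touchdome over HF, Touchdome over IFE and HF over IFE. Against HF, 10 of 15 receptors were lower in Touchdome and 10 of 16 genes of the ligand role higher, a role that includes Porcn and Wls. Against IFE 1 receptor gene was higher in Touchdome and 1 R-spondin module gene lower. For HF over IFE, 11 of 15 receptors were higher and 10 of 16 genes of the ligand role lower.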

How the data were processed

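RNA-seq was deposited as 1 table with an expected count and a TPM value per gene in each of 9 libraries. The labels' protocols give an input of 50 ng RNA, poly(A) selection and paired-end reads of 150 nt. The genome build mm39 and the tools RSEM 1.3.3, STAR 2.7.9a and DESeq2 1.38.2 stand in the submitters' processing notes. What each did is not given in the sources used here, nor are annotation and strandedness, so overlapping and antisense genes cannot be told apart. The authors' expected counts are unscaled estimates of reads per gene, of which 92.5% to 94.6% per library were whole numbers. The TPM values deposited by the authors are scaled to transcript length and keep no depth.

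Symbols for 52081 identifiers came from the GENCODE table. Expected counts were rounded, filtered by group with filterByExpr (edgeR 4.0.16, at least 10 counts and 15 in total), scaled by TMM and tested in 1 fit of all 9 libraries with the robust quasi-likelihood test (R 4.3.3). Where IFE held 1 to 3 counts, ratios of summed counts carry exact 95% intervals, which cover counting error only. Promoter windows came from RefSeq and are not on the authors' build. No pair of libraries agreed within sampling noise (chi-square per degree of freedom 15.7 to 69.2).

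The 10 genes, the 96 other pathway genes and the marker lists were chosen with earlier results of these data known. Besides the 10, the text names per role the 2 called genes with the smallest p, and the most alike gene per member. It also names the gate genes and markers that moved with a member. Porcn, Wls, Bambi, Col1a2 and the other tested genes of the R-spondin module are named to qualify counts or sums. The 16 alternatives were RLE scaling, no filter, DESeq2 1.42.0, only the 2 groups compared, a replicate block, limma 3.58.1 on log2(TPM + 1) and log2(TPM + 0.1), and each of 9 libraries left out. Same-numbered Touchdome and IFE libraries deviated together (r = 0.146, 0.173 and 0.203), which meets the criterion for pairs (every r over 0.1). The fit reported has no block, and the blocked counts stand beside those they moved. For Touchdome and HF (r = 0.0701, -0.0257 and 0.0327) and for HF and IFE (0.0592, -0.00828 and 0.0541) the criterion was not met.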

Additional observations from a re-analysis of the deposited data

How the results depend on the processing

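Of 478 alternative values of the 10 genes' 30 fold changes, 451 kept their side of the threshold, 19 lost a call, 8 gained one and 0 called values changed sign. Of 671 for the 14 other pathway genes named for their small p, 18 lost and 4 gained a call. Calls of Lef1 over IFE, of Tcf7 against HF and of Axin2 were the ones lost among the 10 genes. With limma on log2(TPM + 1) and on log2(TPM + 0.1), the count of the 10 genes higher in Touchdome than in HF was 0 and of those lower in HF than in IFE was 0, both through Axin2, while 1209 and 1219 of all genes were lower in HF than in IFE. For Touchdome over IFE, the 10 genes higher were 1 with only the 2 groups compared, where Lef1 was not kept by the filter, and 1 with limma on log2(TPM + 1). All genes higher were 440 with DESeq2, 100 with only the 2 groups, 282 with the replicate block and 100 with limma on log2(TPM + 1), against 184. All genes lower were 49 without a filter, 73 with DESeq2, 5 with only the 2 groups, 67 with the replicate block and 0 with both limma fits, against 12. Other pathway genes higher were 2 without a filter, 7 with DESeq2 and 2 with the replicate block. Those lower were 2 without a filter, 2 with DESeq2, 0 with only the 2 groups, 2 with the replicate block and 0 with both limma fits. The causes were not tested. The replicate block changed no call of the 10 genes.

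With 1 library left out at a time, genes higher in Touchdome than in IFE numbered 105 to 216 of all, 1 to 2 of the 10 and 1 to 3 of the other pathway genes, and genes lower 4 to 29 of all, 0 of the 10 and 0 to 1 of the others. The lowest count of all genes higher, 105, was without IFE replicate 1, and the highest count lower, 29, without IFE replicate 2. Against HF, Touchdome was higher for 1 of the 10 genes throughout and lower for 6 to 7. HF was higher than IFE for 6 to 7 of the 10 (8 with both limma fits) and lower for 1. Depth limits Nkd1, Lef1 and Wif1 in IFE, which held 1, 2 and 8 counts, so that their fold changes against IFE moved with the scale. Nkd1 over IFE ranged from 1.71 with limma on log2(TPM + 1) to 8.38 without IFE replicate 3, and passed the threshold in all 16 alternatives (adjusted p up to 0.0188).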
